A study of Mus musculus with 208 samples.

Results

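The data on 10 mouse genes of de novo lipogenesis were described across all deposited expression tables: the enzymes that take citrate or acetate to palmitate (Acly, Acss2, Acaca, Acacb, Fasn), the NADPH-producing enzyme Me1, the transcription factors Srebf1 and Mlxipl, and the lipogenic genes Thrsp and Pnpla3. The members were listed by name as the pathway from citrate to palmitate and its transcription factors, with earlier results of these data known. All are reported, whatever their values. All 10 were found, among 47231 gene names that occur in any table. The series holds 208 RNA-seq samples of C57BL/6 mice and embryos in 10 tables, all wild type but for embryos with a Rag2-/- father, and it asks whether the microbial state of parents is reflected in the gene expression of offspring. Conventionally raised (CR) mice came from a commercial line and germ-free (GF) mice from gnotobiotic colonies, so the germ-free state and the colony of origin cannot be told apart. Crosses are written father × mother, and breeding pairs were kept in a conventional facility. F2 mice carry the name of the F0 cross they descend from, not of their own parents. In a scheme of the study, F1 CR×CR and GF×CR females were bred to new CR males, and F1 GF×GF females to new GF males. In another scheme littermates were bred, and the labels do not say which gave the F2 skin.

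The sebaceous glands (SG) of back skin were cut out by laser capture from fixed and embedded tissue. They were profiled in 3 CR and 3 GF mice of the parental generation (F0). In F1 they were profiled in 2 offspring of CR×CR pairs and 3 of GF×GF pairs, named CR and GF below. The study describes F1 mice with GF parents as colonized. For gland profiles of these group sizes it describes offspring of GF mothers that were given a conventional microbiota during pregnancy. The labels do not state this treatment. In F1 glands GF thus names the origin of the parents and not the state of the mouse. Whole back skin was profiled in F1 in 5 mice of CR×CR, 3 of GF×GF and 3 of GF×CR pairs, and in F2 in 5, 3 and 6 mice of these lines. Small intestine, taken as distal ileum, was profiled in 4 CR×CR and 3 GF×CR F1 mice, and liver in 4 CR×CR and 3 GF×CR F1 mice. The mice were adults of both sexes, 8 weeks old unless stated otherwise, and the labels give no sex for a sample. Single embryos from in vitro fertilization were profiled at the 4-cell stage (25 CR×CR, 15 GF×CR, 9 CR×GF and 21 RAG×WT) and as morulae (43 CR×CR, 17 GF×CR and 28 RAG×WT), where RAG×WT embryos had a Rag2-/- father and a wild-type mother. In the tissues 1 library is 1 mouse, and in the embryos 1 library is 1 embryo. Values are reads of a gene per 1000000 reads of the library (CPM) in the tissues, and transcripts of a gene per 1000000 transcripts (TPM), which allows for gene length, in the embryos. For liver the study's methods name TPM, but the low values of each liver library are steps of 1 size, and they were read as CPM.

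De novo lipogenesis builds fatty acids from the carbon of sugar or acetate. Citrate that leaves the mitochondrion is split by ATP citrate lyase (Acly) into acetyl-CoA, which acetyl-CoA synthetase (Acss2) can also make from acetate. The acetyl-CoA carboxylases Acaca and Acacb turn it into malonyl-CoA, with Acacb at the mitochondrial surface, where malonyl-CoA holds back the entry of fatty acids for oxidation. Fatty acid synthase (Fasn) then joins malonyl units into palmitate with the NADPH that malic enzyme (Me1) and the pentose phosphate pathway provide. In liver the program is driven after feeding by SREBP-1c, encoded by Srebf1, which responds to insulin and to the oxysterol receptors LXR, and by ChREBP, encoded by Mlxipl, which responds to sugar. Thrsp (Spot14) is a nuclear and cytosolic protein of lipogenic tissues, and Pnpla3 is a lipid droplet protein whose transcription follows both factors. Sebaceous glands, fat cells and liver are the tissues of the body best known for this pathway.

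The windows of 250 bases before the transcription start of all 10 members were taken from RefSeq (build GRCm38.p6) and searched on both strands for motifs of the factors that bind lipogenic promoters: the E-box CACGTG, a sterol response element core TCACNCCAC, the GC box GGGCGG and the CCAAT box. Of all 32851 promoter windows of this length, 6.02% held the E-box, 1.05% the sterol element core, 32.7% the GC box and 33.8% the CCAAT box. Some members had more than 1 annotated start, and each was searched, which gave 14 windows. The windows of Acaca and Acacb may lie before starts inside the gene, so the motif counts may miss their main promoters. Of these the E-box and the sterol element core were each found in 1, a GC box in 7 and a CCAAT box in 9. The windows of Fasn, Thrsp, Me1 and Mlxipl are shown because the tissue results turn on these genes, with motif matches in capitals; a match describes the letters and is no evidence of binding.
Fasn (chr11:120824548-120824797, minus strand, 3 CCAAT matches, of which a pair overlap on opposite strands): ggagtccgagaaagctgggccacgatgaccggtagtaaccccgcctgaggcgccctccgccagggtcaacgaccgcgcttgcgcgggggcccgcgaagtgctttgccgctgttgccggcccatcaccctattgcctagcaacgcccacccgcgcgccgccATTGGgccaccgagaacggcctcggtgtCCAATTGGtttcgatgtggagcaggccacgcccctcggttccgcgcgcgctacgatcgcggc
Thrsp (chr7:97417551-97417800, minus strand, 2 CCAAT matches): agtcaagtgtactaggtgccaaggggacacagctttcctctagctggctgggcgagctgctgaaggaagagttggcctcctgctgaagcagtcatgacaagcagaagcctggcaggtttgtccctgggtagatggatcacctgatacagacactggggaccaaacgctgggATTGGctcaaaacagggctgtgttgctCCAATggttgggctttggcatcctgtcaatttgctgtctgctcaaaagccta
Me1, upstream start (chr9:86695915-86696164, minus strand, 3 GC boxes): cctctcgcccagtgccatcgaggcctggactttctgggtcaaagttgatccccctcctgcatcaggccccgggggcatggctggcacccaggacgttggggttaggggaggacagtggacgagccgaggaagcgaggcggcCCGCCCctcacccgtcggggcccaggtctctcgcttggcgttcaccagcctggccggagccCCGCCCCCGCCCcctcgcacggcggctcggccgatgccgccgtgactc
Mlxipl, first start (chr5:135089640-135089889, plus strand, 1 E-box, 2 GC boxes and 1 CCAAT box): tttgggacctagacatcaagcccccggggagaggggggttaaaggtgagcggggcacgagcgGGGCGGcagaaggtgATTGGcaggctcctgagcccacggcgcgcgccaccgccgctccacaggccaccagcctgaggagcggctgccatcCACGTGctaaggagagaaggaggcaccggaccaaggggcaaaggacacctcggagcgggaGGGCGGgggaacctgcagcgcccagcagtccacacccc
Mlxipl, second start (chr5:135106641-135106890, plus strand, 1 sterol element core): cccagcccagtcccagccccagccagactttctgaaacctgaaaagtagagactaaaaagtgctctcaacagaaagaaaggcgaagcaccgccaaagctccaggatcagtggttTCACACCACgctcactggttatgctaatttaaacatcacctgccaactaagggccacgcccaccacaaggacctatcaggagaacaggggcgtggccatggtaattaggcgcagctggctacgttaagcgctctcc
The matches to the E-box and to the sterol element core thus lie at different starts of 1 gene, Mlxipl.

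Differences between groups were tested with limma on log2(value + 0.5) over genes at 1 CPM or TPM or more in at least n samples, n being the size of the smaller group, and p-values were adjusted by Benjamini-Hochberg over all genes tested. A gene was called changed at an adjusted p under 0.05, and "unadjusted p" below is the same limma p before that step. Tissue libraries held about 2.59 to 24.7 M reads (M, 1000000), estimated from the commonest low value of each column, and the top row took 10.4% to 26.2% of a skin library against 1.76% to 7.39% elsewhere. The markers of the labelled tissue were detected in each tissue: 6 hepatocyte genes summed to 70461 to 111815 CPM per liver, 6 enterocyte genes to 3676 to 31316 CPM per ileum, and 9 sebocyte genes to 15882 to 23135 CPM per gland library. The CR×CR skin mice stand in 2 tables per generation, 1 for each cross they are compared with, and the values of a mouse for a gene in the pair of tables differ by a factor, constant for that gene, of 0.957 to 1.06 in F1 and 0.979 to 1.03 in F2, so comparisons stay within a table.

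In control mice (CR and CR×CR), the members divided the tissues in different ways. The enzymes were highest in the gland. Fasn had a median of 1245 CPM in F0 glands and 1179 CPM in F1 glands, 639 CPM in liver, 152 CPM in F1 skin, 132 CPM in ileum and 91.7 CPM in F2 skin. The range of the gland did not overlap that of liver, and the ranges of skin and ileum overlapped. Acacb was far higher in the gland than elsewhere, at a median of 3595 CPM in F0 and 2258 CPM in F1, against 120 CPM in liver, 105 and 101 CPM in skin and 8.81 CPM in ileum. Acaca had medians of 427 CPM (F0) and 610 CPM (F1) in the gland, 204 and 164 CPM in skin, 59 CPM in ileum and 57 CPM in liver, the last 2 with overlapping ranges. Acly, Acss2 and Me1 had the same leading tissue. Acly was at a median of 1470 and 1303 CPM in the gland and 90.8 to 182 CPM elsewhere, Me1 at 1235 and 1408 CPM against 61.9 to 112 CPM, and Acss2 at 336 and 307 CPM against 185 CPM in liver and 28.7 to 38.1 CPM in skin and ileum. Levels across tissues, here and below, are set side by side with no test, since the tables were normalised separately. Gland and skin libraries were made from total RNA with ribosomal RNA removed, and ileum and liver libraries from mRNA. Differences between tissues and between library types cannot be told apart where both differ.

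The transcription factors and Thrsp were placed otherwise. Mlxipl was highest in liver, at a median of 752 CPM, then 73.2 CPM in ileum and 41.1 and 31 CPM in skin, and lowest in the gland at 6.85 and 6.87 CPM, with no overlap between gland and skin. Srebf1 was at 389 CPM in F1 glands, 355 CPM in liver and 270 CPM in F0 glands, whose ranges overlapped, and at 55.6 to 84.8 CPM in skin and ileum. The gland, which carried the highest Fasn and Acacb of these tissues, thus carried the lowest Mlxipl. Thrsp was at a median of 147 CPM in liver, 47.7 CPM in ileum, 43.5 CPM in F1 skin and 15.2 CPM in F2 skin, ranges that overlap in turn. In the gland it was nearly absent, at 0.212 to 0.453 CPM in F0 and at 0 and 0.168 CPM in F1, and it was left out of the gland tests for this reason. Pnpla3 was highest in skin (36 and 36.5 CPM), then in the gland (25.9 and 11.8 CPM), and lowest in ileum (3.89 CPM) and liver (2.1 CPM).

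**Figure D1:**
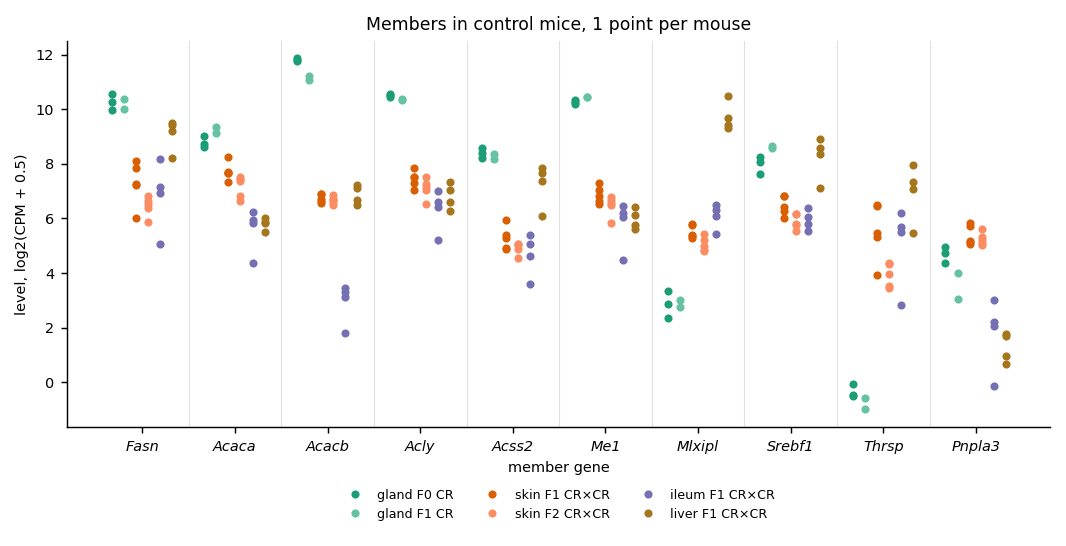
Level of each of the 10 genes in control mice, as log2(CPM + 0.5) on the vertical axis, by gene on the horizontal axis, with tissue tables as colours and 1 point for each mouse. The enzymes are highest in the gland (median Fasn 1245 CPM in F0), Mlxipl in liver (752 CPM), and Thrsp is under 0.5 CPM in every control gland.

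In the sebaceous glands, none of the 9 members tested was called changed in either generation. In F0 glands 2.2% of 14889 genes tested were called, and in F1 glands 0.717% of 15058 genes. At an unadjusted p under 0.05, Fasn was the 1 member in F0, where 19.8% of all genes lie under that value, and Fasn, Acaca and Acacb were the 3 members in F1, against 12.2% of all genes. Fasn had the higher mean in GF glands in both generations. In F0 it was at 1000, 1499 and 1245 CPM in CR mice and at 1459, 1614 and 1932 CPM in GF mice, 1248 ± 249 against 1668 ± 241 (SD), and the groups overlapped. The log2 difference was 0.43 (SE 0.16, 95% interval 0.06 to 0.80, adjusted p = 0.199). In F1 it was at 1029 and 1329 CPM in the CR group and at 1486, 2126 and 1416 CPM in the GF group, with no overlap, and the difference was 0.49 (SE 0.20, 95% interval 0.03 to 0.96, adjusted p = 0.375).

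The carboxylases lay on opposite sides of the controls in F1 GF glands. Acaca was at 655 and 565 CPM in the CR group and at 942, 892 and 890 CPM in the GF group, which gives 610 ± 63.4 against 908 ± 29.3 CPM. Its log2 difference was 0.58 (SE 0.12, 95% interval 0.30 to 0.86, unadjusted p = 0.00142, adjusted p = 0.103). Acacb was at 2153 and 2363 CPM in the CR group and at 1432, 1349 and 1492 CPM in the GF group, 2258 ± 149 against 1425 ± 71.7 CPM. All GF glands thus lay above the CR glands for Acaca and below them for Acacb. The log2 difference of Acacb was -0.66 (SE 0.12, 95% interval -0.95 to -0.38, unadjusted p = 0.000583, adjusted p = 0.064). Neither passed the threshold, and over 13 alternative settings the adjusted p ran from 0.053 to 0.746 for Acacb and from 0.0901 to 0.684 for Acaca. In F0 glands both were closer. Acaca was at 396, 427 and 513 CPM in CR and 521, 476 and 504 CPM in GF mice (difference 0.17, adjusted p = 0.439), and Acacb at 3494, 3740 and 3595 CPM in CR and 2906, 2774 and 3669 CPM in GF mice (difference -0.22, SE 0.13).

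Me1 was the 1 member whose groups were apart, with no overlap, in both generations of gland. In F0 glands it was at 1235, 1180 and 1284 CPM in CR mice and 977, 992 and 1172 CPM in GF mice (difference -0.24, SE 0.11, adjusted p = 0.254), and in F1 glands at 1410 and 1406 CPM against 1223, 1215 and 1050 CPM (difference -0.28, SE 0.13, adjusted p = 0.425). Every GF gland thus lay below every CR gland of its own table. Groups of this size often separate: 24.9% of all genes in F0 and 30.2% in F1 had groups that did not overlap, against 1 of 9 members in F0 (Me1) and 4 of 9 in F1 (Fasn, Acaca, Acacb and Me1). The other 5 members tested overlapped between groups in both generations. Acly had differences of 0.14 in F0 and -0.02 in F1, Acss2 of 0.20 and -0.09, Srebf1 of 0.33 and -0.11, Mlxipl of 0.16 and -0.17, and Pnpla3 of -0.30 and 0.23. All 5 of these changed sign between the generations, none with a call. The median over the 9 members was 0.16 in F0, where the median over all genes was 0.14, and -0.09 in F1, where it was -0.03.

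**Figure D2:**
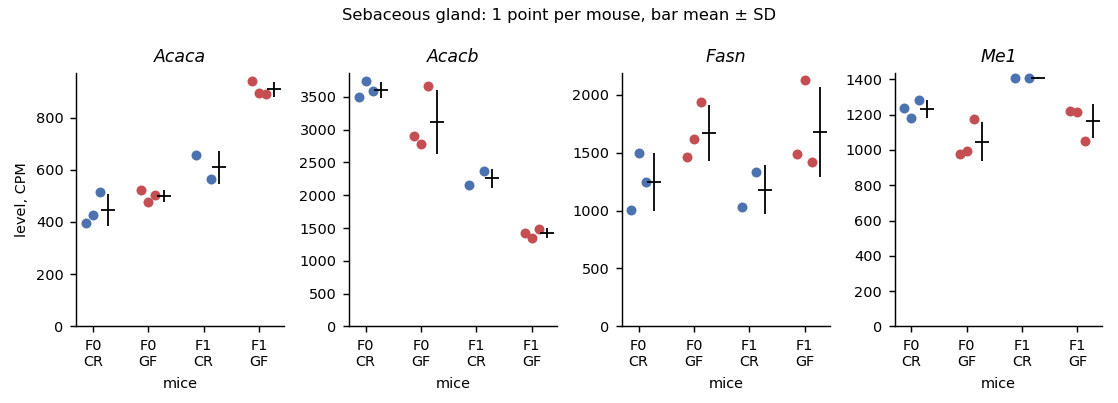
CPM per mouse (vertical axis) of Acaca, Acacb, Fasn and Me1 in CR and GF sebaceous glands of F0 and F1, with 1 point per mouse and the mean ± SD. In F1, Acaca is higher (908 against 610 CPM) and Acacb lower (1425 against 2258 CPM) in the GF group, with no overlap. The F1 GF group are colonized offspring of GF×GF pairs.

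The genes that handle the product of Fasn were the group around the members with calls in both generations of gland. Elovl6, which lengthens palmitate to stearate, rose in GF F0 glands, to 9423 ± 1695 CPM against 4974 ± 1022 CPM in CR glands (difference 0.93, SE 0.19, adjusted p = 0.0464) and in GF F1 glands, to 8079 ± 827 CPM against 4061 ± 668 CPM (1.0, SE 0.16, adjusted p = 0.0408). Agpat2, an acyltransferase of glycerolipid synthesis, rose in F1 from 58.2 ± 5.04 to 161 ± 38.1 CPM (1.43, SE 0.21, adjusted p = 0.0303). These were 1 of 15 product handling genes in F0 and 2 of 15 in F1, and none of the 15 fell in either generation. With any 1 mouse left out Elovl6 was not called, at an adjusted p of 0.0538 to 0.176 in F0 and 0.0954 to 0.218 in F1, and Agpat2 was called only without GF replicate 2 (0.0264, and up to 0.246 without another mouse). Of the genes that supply carbon and NADPH, 0 of 12 were called in both generations, as were 0 of 15 regulators of SREBP and LXR and 0 of 3 sugar response (ChREBP) targets tested. Among 7 LXR targets, Lpl, the lipase that takes up circulating fat, fell in F0 from 176 to 112 CPM (-0.64, adjusted p = 0.0336, and 0.0318 to 0.157 with 1 mouse left out).

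Markers of other cells differed between the gland groups, and their part in the values above was not tested. The 6 fibroblast markers summed to 4301 to 6839 CPM in CR and 6096 to 12172 CPM in GF F0 glands, and all 6 were higher at an unadjusted p under 0.05. In F1 the same markers summed to 1870 to 2260 CPM in the CR and 800 to 1622 CPM in the GF group, which is the other direction. The 9 sebocyte markers summed to 19445 to 20675 CPM in CR and 15882 to 20994 CPM in GF F0 glands, and to 16886 to 18112 against 19392 to 23135 CPM in F1. Within the F0 sum single markers went both ways. Awat2, a wax ester synthase of sebocytes, rose from 414 to 890 CPM (1.09, adjusted p = 0.00849), while its relative Dgat2l6 fell from 2225 to 1188 CPM (-0.90, adjusted p = 0.00942) and the elongase Elovl3 from 283 to 92.1 CPM (-1.56, adjusted p = 0.0267). With any 1 mouse left out their adjusted p ran up to 0.0503, 0.0555 and 0.109. The basal keratin Krt5 rose in F0 from 712 to 1238 CPM (0.79, adjusted p = 0.0365, up to 0.162 with 1 mouse left out). Genes of the fasting and clock lists were called as well: Angptl4, an inhibitor of lipoprotein lipase, rose from 25.1 to 71.7 CPM (1.59, adjusted p = 0.0341), the kinase Pdk4 fell from 66.4 to 40 CPM (-0.72, adjusted p = 0.0342) and the clock gene Per1 fell from 174 to 94.2 CPM (-0.91, adjusted p = 0.0365). With 1 mouse left out their adjusted p ran up to 0.134, 0.162 and 0.164. Adipocyte markers were low, at 82.5 to 117 CPM in all F0 glands. Y-linked genes summed to 74.9 to 90.7 CPM in the CR and 56.5 to 64.6 CPM in the GF F1 glands. With the mean of the log2 values of these genes as a covariate, the Fasn difference in F1 was -0.46 in place of 0.49. The Y-linked sums did not overlap between the groups, so this fit can hardly separate the covariate from the group.

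In F1 skin 6 of the 10 members had differences of opposite sign in the 2 crosses, and none was called in either. The question was whether offspring with GF parents, or with a GF father only, differ from CR×CR offspring. Of all genes, 0.09% of 16668 were called for GF×GF and 0.0537% of 16761 for GF×CR. For GF×GF the median over the 10 members was 0.52, with 6 above 0 and 4 below, and the median over all genes was -0.20. Scaling by median ratios moved these medians to 0.74 and 0.01 and put all 10 members above 0. For GF×CR the median over the members was -0.58 with all 10 below 0, and the median over all genes was -0.08. Both comparisons use the same 5 CR×CR mice.

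**Figure D3:**
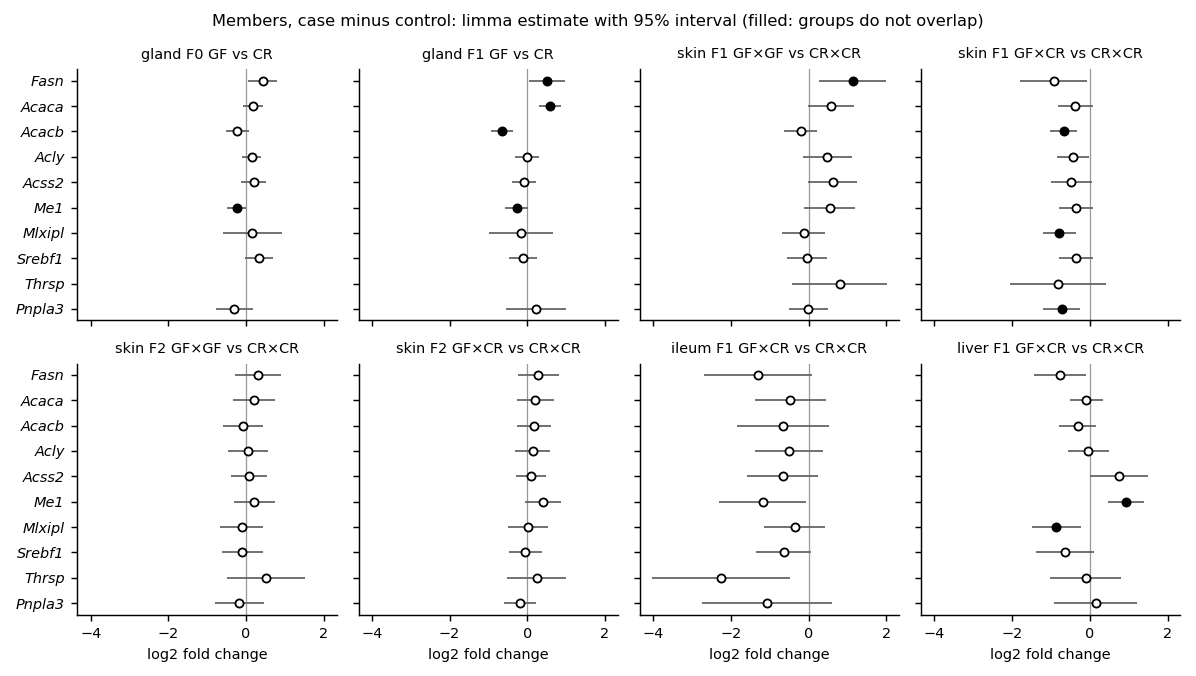
Log2 difference of each of the 10 genes from the control group of its table (horizontal axis), with the limma 95% interval, in the 8 tissue comparisons. Filled points mark groups that do not overlap, and the F1 skin panels lie on opposite sides of 0 for Fasn (1.13 for GF×GF and -0.94 for GF×CR).

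Fasn was the 1 member of the GF×GF comparison with an unadjusted p under 0.05 and the 1 member whose groups did not overlap, against 8.93% and 6.5% of all genes. It was at 60, 144, 260, 220 and 140 CPM in CR×CR skin and at 432, 285 and 272 CPM in GF×GF skin, 165 ± 77.7 against 330 ± 88.9 CPM. The difference was 1.13 (SE 0.40, unadjusted p = 0.0155, adjusted p = 0.542). For the other enzymes the mice of the GF×GF group spread widely. Acaca was at 465, 361 and 211 CPM against 168 to 317 CPM in CR×CR skin (0.58), and Acly at 407, 258 and 153 CPM against 135 to 241 CPM (0.48). Me1 was at 270, 191 and 96.3 CPM against 92.7 to 160 CPM (0.55), and Acss2 at 84.5, 59 and 38.1 CPM against 27.8 to 58.7 CPM (0.62). In each of these replicate 1 of GF×GF was the highest of all 8 mice and replicate 3 lay among the controls. Replicate 1 was the highest mouse for 9 of the 10 members. Thrsp had a difference of 0.80 (SE 0.56), and Srebf1 (-0.03), Pnpla3 (-0.01), Mlxipl (-0.13) and Acacb (-0.21) lay near or below 0. When libraries were weighted by their fit to the model, Acaca, Acly, Acss2, Fasn and Me1 were called, and with them 14.3% of all genes.

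In the GF×CR comparison Acacb, Mlxipl and Pnpla3 were the members whose groups did not overlap, and every GF×CR mouse lay below every control, against 4.5% of all genes with groups that do not overlap. Acacb was at 105, 93.8, 117, 118 and 98.3 CPM in CR×CR skin and at 72.4, 76.7 and 52.2 CPM in GF×CR skin, 106 ± 10.9 against 67.1 ± 13.1 CPM (-0.68, SE 0.16, unadjusted p = 0.00151, adjusted p = 0.452). Mlxipl was at 38.7, 40.5, 54.2, 55.3 and 41.1 CPM against 31.3, 29.4 and 19.5 CPM (-0.78, SE 0.20, unadjusted p = 0.0021, adjusted p = 0.477). Pnpla3 was at 34.9, 36, 57, 51.9 and 32.7 CPM against 25.8, 28.6 and 20.6 CPM (-0.73, SE 0.21, adjusted p = 0.575). For these 3 members GF×CR replicate 3 was the lowest mouse. Fasn was at 63.5, 152, 275, 232 and 148 CPM in CR×CR skin and at 106, 74.6 and 67.8 CPM in GF×CR skin (-0.94, SE 0.39, adjusted p = 0.676), where control replicate 1 was the lowest of all 8 mice. Acly had a difference of -0.43 (SE 0.19), and Fasn, Acacb, Acly, Mlxipl and Pnpla3 made 5 members with an unadjusted p under 0.05, against 7.08% of all genes. Acaca (-0.37), Me1 (-0.36), Srebf1 (-0.36), Acss2 (-0.48) and Thrsp (-0.83, SE 0.56) had wider relative errors. Replicate 3 of GF×CR was the lowest of all mice for 9 of the 10 members.

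Fewer cells of a type and less RNA per cell cannot be told apart in whole skin, which holds sebaceous glands and fat. In F1 the adipocyte markers summed to 567 to 1698 CPM in CR×CR and 555 to 1850 CPM in GF×GF skin, and in the table of the other cross to 562 to 1688 against 894 to 1661 CPM, so both groups overlapped the controls. In GF×GF mice 1, 2 and 3 these sums were 1850, 1740 and 555 CPM, in the same order as the summed members (2147, 1493 and 1040 CPM). In GF×CR mice 1, 2 and 3 they were 1170, 1661 and 894 CPM, and the members summed to 830, 733 and 578 CPM, in another order. The 9 sebocyte markers were lower in GF×CR skin, with a median difference of -0.53, sums of 258 to 369 CPM against 320 to 582 CPM and 5 of 9 at an unadjusted p under 0.05. Keratinocyte markers summed to 826 to 1950 CPM against 1451 to 3685 CPM. The part of these shifts in the member values was not tested. Around the members, no gene of the supply, regulator, sugar response, LXR target or product handling lists was called in either F1 cross. At an unadjusted p under 0.05 the regulators Nr1h3, which encodes LXR alpha, and Mlxip, the relative of Mlxipl, were lower in GF×CR skin, and Mlxip and the coactivator Ppargc1b in GF×GF skin.

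In F2 skin no member was called or reached an unadjusted p under 0.05 in either cross. Of all genes, 0.0418% of 16752 were called for GF×GF and 0% of 16430 for GF×CR, and 1.75% and 2.22% had an unadjusted p under 0.05. For GF×GF the members lay between -0.17 (Pnpla3) and 0.51 (Thrsp), with a median of 0.06. Fasn was at 99.9, 92.1, 112, 83.1 and 58.1 CPM in CR×CR skin and at 118, 73.9 and 143 CPM in GF×GF skin (0.31, SE 0.27, 95% interval -0.28 to 0.90). Thrsp was at 20, 10.5, 11, 19.5 and 15.2 CPM against 21.5, 7.83 and 55.3 CPM, so its mean rests on replicate 3. Acaca was at 159, 158 and 159 CPM in the 3 GF×GF mice. For GF×CR the members lay between -0.19 (Pnpla3) and 0.41 (Me1), with a median of 0.15.

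Me1 was the member with the smallest unadjusted p among the F2 skin comparisons, at 102, 88.8, 111, 95.1 and 56.2 CPM in CR×CR skin and 80.8 to 154 CPM (median 119) in 6 GF×CR mice (0.41, SE 0.22, unadjusted p = 0.0784). Fasn was at 99.4, 91.7, 112, 82.8 and 57.9 CPM against 69.5 to 173 CPM (0.28, SE 0.25, 95% interval -0.25 to 0.81), and the groups overlapped. No member had groups that did not overlap in F2, against 1.4% of all genes for GF×GF and 0.237% for GF×CR. None of the genes on the surrounding lists was called. The difference between F1 and F2 was not tested.

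In the ileum all 10 members were lower in mean in GF×CR than in CR×CR mice, and none was called. The median over the members was -0.66, and over all genes -0.08. Of 14802 genes, 0% were called, by this limma test, and 4.5% had an unadjusted p under 0.05, among them the members Me1 and Thrsp. Fasn was at 33.3, 288, 122 and 143 CPM in CR×CR mice 1, 2, 3 and 5 and at 43.2, 28.2 and 77.7 CPM in GF×CR mice, 146 ± 106 against 49.7 ± 25.4 CPM (-1.31, SE 0.62, 95% interval -2.70 to 0.08, adjusted p = 0.943). The first control mouse lay among the GF×CR mice, and the other controls lay above all of them. Me1 had the same arrangement, at 21.5, 87.7, 66.1 and 72.7 CPM against 18.2, 17 and 44.2 CPM (-1.18, SE 0.50, 95% interval -2.30 to -0.07).

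Thrsp showed the widest difference in the ileum, at 6.66, 73.8, 51 and 44.4 CPM in CR×CR mice and 8.04, 2.32 and 13.3 CPM in GF×CR mice, 44 ± 27.9 against 7.89 ± 5.5 CPM. Its difference was -2.27 (SE 0.79, 95% interval -4.04 to -0.49, unadjusted p = 0.0175, adjusted p = 0.943). The control mouse 1 again lay within the GF×CR range. No member had groups that did not overlap, against 5.6% of all genes. Acly (-0.51), Acss2 (-0.66), Acaca (-0.47), Acacb (-0.66), Srebf1 (-0.64) and Pnpla3 (-1.08) had the same sign with control mouse 1 low. Mlxipl was apart, at 78.1, 42.5, 89.3 and 68.3 CPM against 82.4, 31.3 and 55.3 CPM (-0.36), with control mouse 1 among the high ones. Across the 7 ileum samples of the 2 crosses, the log2 values of 9 members had a Pearson r of 0.868 to 0.984 with the mean of the members, and Mlxipl 0.161. That mean includes the member itself, which raises each r.

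The size of the ileum differences depended on single mice of both groups. Without CR×CR mouse 1 the differences were -1.90 for Fasn, -1.63 for Me1 and -3.01 for Thrsp (adjusted p = 0.551, 0.551 and 0.442), and without CR×CR mouse 2, the highest for 8 of the 10 members, they were -0.86, -0.96 and -1.88. Without GF×CR mouse 2 they were -0.97, -0.94 and -1.62. GF×CR mice 1 and 2 had the libraries of lowest depth, about 2.99 and 2.59 M reads, and their top row, the mitochondrial gene mt-Co1, took 6.48% and 6.13% of the library. The other ileum libraries held 3.84 to 14.2 M reads, and their top rows took 1.8% to 3.24%. With both of these mice left out, which leaves 1 GF×CR mouse assumed to vary like the controls, the differences were -0.55 for Fasn, -0.31 for Me1 and -1.27 for Thrsp, those of Acacb (0.25) and Srebf1 (0.04) lay above 0, and none was called; this setting was chosen after the data were seen. Weighting the libraries by their fit called all members but Mlxipl, together with 9.11% of all genes, and no other setting called any. With the replicate numbers as a block, no member was called and the adjusted p of Thrsp was 0.41. The labels do not say that same-numbered mice of the crosses are pairs. Adipocyte markers were lower in GF×CR mice too, with no overlap. Their sum was 514, 966, 763 and 544 CPM in CR×CR mice 1, 2, 3 and 5 and 315, 382 and 413 CPM in GF×CR mice, with a median difference of -1.13 over the 9 tested. Cidec (-1.43) and Cfd (-1.63) were the adipocyte genes with an unadjusted p under 0.05. The 6 enterocyte markers summed to 3676 to 31316 CPM in CR×CR and 8182 to 12309 CPM in GF×CR mice. The part of these markers in the member values was not tested. Pgd (-0.69), a pentose phosphate enzyme that yields NADPH, was among the genes of the supply list with an unadjusted p under 0.05, and none on any list was called.

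**Figure D4:**
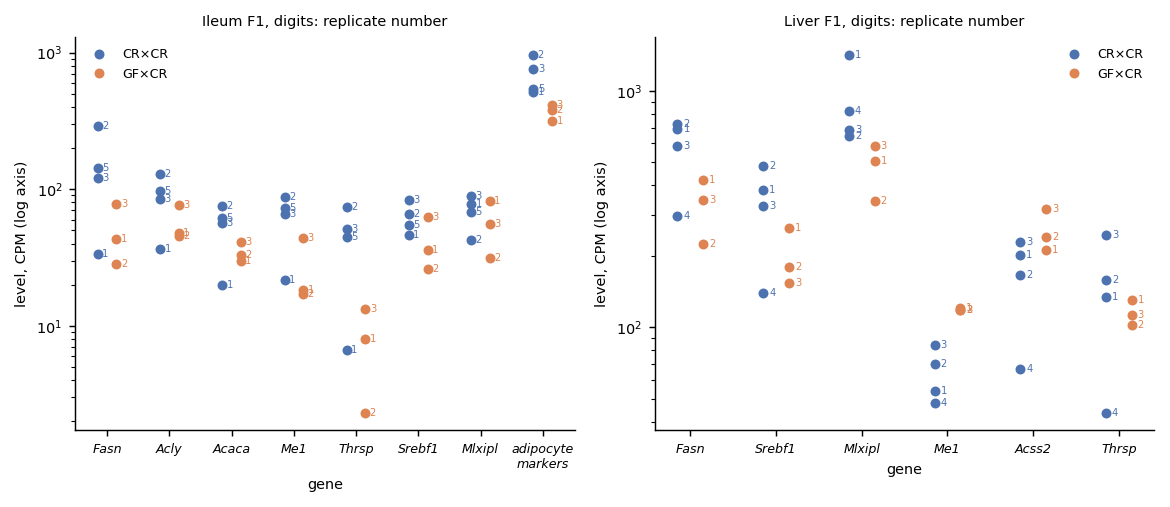
CPM per mouse on a log axis for members in ileum and liver of CR×CR and GF×CR F1 mice, with replicate numbers as digits, and the adipocyte marker sum in the ileum panel. In ileum CR×CR mouse 1 lies with the GF×CR mice for Fasn (33.3 CPM) and Thrsp (6.66 CPM), and in liver the GF×CR mice lie above all controls for Me1 and below them for Mlxipl.

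In the liver the members went both ways in GF×CR mice, and none was called. Of 11663 genes, 0.0343% were called and 15.8% had an unadjusted p under 0.05, among them 3 members: Fasn, Me1 and Mlxipl. Me1 was at 53.9, 69.8, 84.7 and 48.1 CPM in CR×CR and at 121, 118 and 118 CPM in GF×CR livers, 64.1 ± 16.5 against 119 ± 1.59 CPM. Its difference was 0.93 (SE 0.21, 95% interval 0.46 to 1.39, unadjusted p = 0.000812, adjusted p = 0.169), and every GF×CR liver lay above every control. Mlxipl lay the other way, at 1424, 643, 682 and 822 CPM against 505, 341 and 588 CPM, 893 ± 363 against 478 ± 125 CPM (-0.86, SE 0.29, 95% interval -1.48 to -0.24, unadjusted p = 0.0107). These were the 2 members whose groups did not overlap, against 15.8% of all genes. Fasn was at 693, 729, 585 and 295 CPM in CR×CR and 419, 226 and 345 CPM in GF×CR livers (-0.76, SE 0.31, 95% interval -1.44 to -0.09, adjusted p = 0.273), where control replicate 4 fell inside the GF×CR range.

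Of the enzymes before Fasn in liver, Acss2 went the other way, while Acly, Acaca and Acacb had the sign of Fasn with smaller differences. Acss2 was at 203, 167, 230 and 66.8 CPM in CR×CR and 213, 241 and 318 CPM in GF×CR livers (0.75, SE 0.35, unadjusted p = 0.0518, adjusted p = 0.319). Acly (-0.04), Acaca (-0.10) and Thrsp (-0.11) lay near 0, while Acacb (-0.32) and Srebf1 (-0.64, SE 0.35, at 382, 482, 327 and 139 CPM against 262, 179 and 154 CPM) were lower in mean. Control replicate 4 was the lowest liver for 6 of the 10 members. Pnpla3 stayed between 0.823 and 3.49 CPM in all 7 livers. Leaving out 1 liver at a time gave an adjusted p of 0.111 to 0.518 for Me1, 0.17 to 0.57 for Mlxipl and 0.122 to 0.638 for Fasn. With the replicate number as a block, which in liver is only a shared number, Fasn (adjusted p = 0.0171), Srebf1 (0.0171) and Mlxipl (0.0487) were called and Me1 was not (0.051).

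Genes around the pathway in liver also went both ways, and none was called. On the supply list the mitochondrial pyruvate carrier genes Mpc1 and Mpc2 were higher and Pgd (-0.60) lower at an unadjusted p under 0.05. The LXR genes Nr1h2 (-0.53) and Nr1h3 (-0.48) were lower among 15 regulators. Among 10 sugar response targets, Slc2a2 (0.85), the liver glucose carrier, was higher at an unadjusted p under 0.05, while Mlxipl was lower. Of 10 fasting genes, Cpt1a (0.56), Pdk4 (0.95) and Cyp4a14 (0.83) were higher. The clock genes differed widely, with Per1 at a mean of 4.79 CPM in GF×CR and 36.6 CPM in CR×CR livers (-3.04, adjusted p = 0.0938) and Nr1d1 at 59 and 12.2 CPM (2.31, adjusted p = 0.128). Sex-biased liver genes were also apart, with 5 of 8 higher at an unadjusted p under 0.05 and a sum of 1798 to 2530 CPM against 519 to 1279 CPM, while Y-linked genes were at 0 in all 7 livers. The hepatocyte markers summed to 93703 to 111815 CPM in GF×CR and 70461 to 82602 CPM in CR×CR livers. The part of the clock, fasting, sex-biased and hepatocyte genes in the member values was not tested.

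By the highest Pearson r with the mean of the members, the most similar genes across the 7 livers included Pde9a (0.993), Med8 (0.973), Tufm (0.972) and Nadk (0.970) of 9623 genes searched. Across the 7 ileum samples they were Mut (0.991), Prdx3 (0.983), Ralgapa2 (0.982), Pdha1 (0.981) and Pbk (0.980) of 12020, and across the 11 mice of the F2 GF×CR skin table Ipp (0.961), Pxmp4 (0.957), Erf (0.952), Acyp1 (0.951) and Tspan9 (0.95) of 12845. These r are the highest of many over few samples that share libraries and depth, and they are given as a description. In liver the members themselves had an r of 0.928 (Thrsp), 0.893 (Acly), 0.870 (Acaca), 0.819 (Fasn) and 0.812 (Srebf1) with their mean, and 0.192 for Me1 and 0.157 for Mlxipl. Here too the mean includes the member itself, which raises each r.

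At the 4-cell stage no member was called by the microbial state of either parent. The study collected 4-cell embryos over several rounds of in vitro fertilization, and the round of an embryo is not given in the labels, so the p-values treat embryos of 1 round as independent and may be too small. Thrsp was above 0 in 1 of 25 CR×CR, 0 of 15 GF×CR, 1 of 9 CR×GF and 2 of 21 RAG×WT embryos, and 9 members were tested. Of all genes 0.0102% of 9780 were called for GF×CR and 0.337% of 10670 for CR×GF. None reached an unadjusted p under 0.05 in these comparisons, against 5.19% and 11.4% of all genes. Fasn had a median of 7.12 TPM in CR×CR embryos (0.38 to 26.7), 5.96 TPM in GF×CR (1.35 to 15.2) and 7.29 TPM in CR×GF embryos (5.38 to 16.2). The differences were 0.08 for GF×CR and 0.53 for CR×GF.

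In RAG×WT 4-cell embryos Fasn rose, and it was the 1 member of 9 called, where 5.53% of 9313 genes were called. Its median was 12.9 TPM (3.69 to 28.4) against 7.12 TPM (difference 0.96, SE 0.29, adjusted p = 0.0363), and the ranges overlapped over most of their width. Acly had a median of 50.1 TPM (8.87 to 72.8) against 26.6 TPM (0.78 to 71.1) with the same difference of 0.96 (SE 0.31) and an adjusted p of 0.0531, and Acacb a difference of 0.64 (adjusted p = 0.222). These 3 members had an unadjusted p under 0.05, against 21.8% of all genes. The embryo tables hold 2 sets of libraries, told apart by which of the gene rows Marchf2 and Mtarc2 carries the higher value. All 21 RAG×WT 4-cell embryos were in the set with Mtarc2 higher, as were 6 of 25 CR×CR embryos, while all GF×CR and CR×GF embryos were in the other. The CR×CR embryos of the first set had a median Fasn of 10.2 TPM and Acly of 39 TPM, and those of the second 6.98 and 21.9 TPM. Within the first set the RAG×WT difference was 0.34 for Fasn (SE 0.42) and 0.09 for Acly, and neither was called. With the number of genes above 0 as a covariate, a setting chosen after the data were seen, Fasn was at 0.84 and was not called (adjusted p = 0.0562).

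In morulae sired by GF fathers 5 of the 10 members fell, and all 10 had a negative difference, in libraries in which fewer genes were detected. The number of genes above 0 TPM had a median of 10842 in GF×CR (8591 to 12640) and 12128 in CR×CR morulae (9922 to 13001), and 3 of 17 GF×CR morulae lay below every CR×CR morula. Of 10893 genes 30.2% were called, 318 higher and 2969 lower, and the median over all genes was -0.32, against -0.76 over the members. With median ratio scaling the medians were -0.17 and -0.61. Me1 had a median of 39.2 TPM in CR×CR morulae (14 to 97.2) and 22.1 TPM in GF×CR morulae (2.75 to 66.7), with a difference of -1.12 (SE 0.23, adjusted p = 0.000484). Srebf1 had medians of 33 TPM (8.68 to 88) and 13.5 TPM (3.05 to 51.8), a difference of -1.17 (SE 0.26, adjusted p = 0.000983). The acetyl-CoA enzymes fell with them. Acly went from a median of 63.7 TPM (11.6 to 112) to 32.3 TPM (8.1 to 110; -0.89, SE 0.24, adjusted p = 0.00406), and Acss2 from 11.4 TPM (0.3 to 24.7) to 5.93 TPM (0 to 16.3; -1.04, SE 0.32, adjusted p = 0.0108). Acaca, the carboxylase of fatty acid synthesis, fell from 3.96 TPM (0.21 to 9.04) to 2.35 TPM (0.34 to 6.57; -0.66, SE 0.24, adjusted p = 0.0282).

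Fasn itself was not called in GF×CR morulae, at a median of 6.81 TPM (1.41 to 20.4) in CR×CR and 5.05 TPM (0.36 to 12.7) in GF×CR morulae (-0.48, SE 0.24, unadjusted p = 0.0468, adjusted p = 0.115). With it, 6 of 10 members had an unadjusted p under 0.05, against 41.5% of all genes. Thrsp, seldom seen at the 4-cell stage, was above 0 in 37 of 43 CR×CR and 11 of 17 GF×CR morulae (medians 5.89 and 2.71 TPM, adjusted p = 0.179). Pnpla3 (-0.47), Acacb (-0.39) and Mlxipl (-0.30) were not called. In RAG×WT morulae, set against the same CR×CR morulae, no member was called, and the differences ran from -0.26 (Me1) to 0.34 (Pnpla3). There 2.68% of 10477 genes were called, 19.3% had an unadjusted p under 0.05, and no member did.

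**Figure D5:**
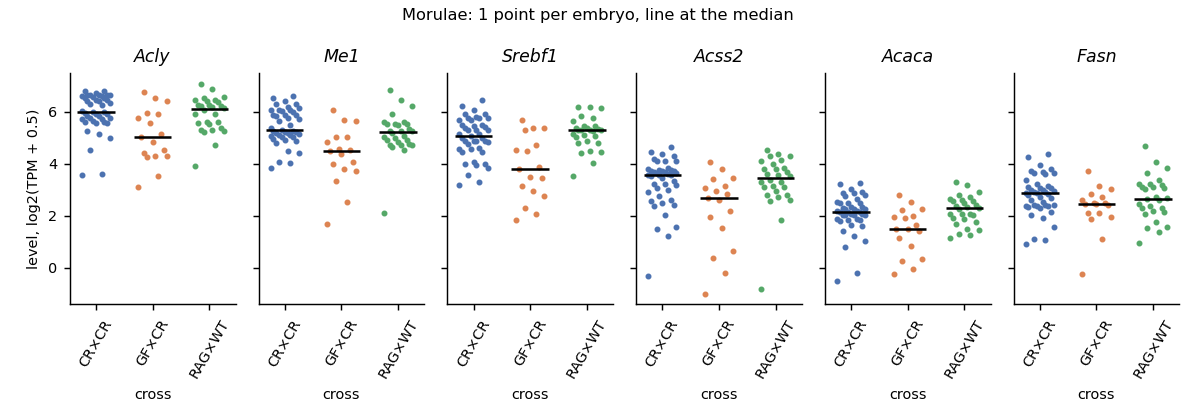
Log2(TPM + 0.5) of Acly, Me1, Srebf1, Acss2, Acaca and Fasn in single morulae (vertical axis) from CR×CR, GF×CR and RAG×WT crosses, with 1 point per embryo and a line at the median. The GF×CR medians lie below the CR×CR medians (22.1 against 39.2 TPM for Me1), and the points of all crosses overlap.

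The morula calls depended on the libraries. With the number of genes above 0 as a covariate, no member was called and 1.74% of all genes were: Me1 was at -0.65 (adjusted p = 0.0861), Srebf1 at -0.55 (0.157), Acss2 at -0.72 (0.223), Acly at -0.40 (0.295) and Acaca at -0.29 (0.521). Without the 3 GF×CR morulae below every CR×CR morula in that number, Me1 (-0.82, adjusted p = 0.0122), Srebf1 (-0.87, adjusted p = 0.0256) and Acss2 (-1.06, adjusted p = 0.0283) were called, beside 10.9% of all genes, and Acly (-0.65, adjusted p = 0.0653) and Acaca (-0.48, adjusted p = 0.193) were not. Both settings were chosen after the data were seen. All 17 GF×CR morulae and 21 of 43 CR×CR morulae were in the set with Marchf2 higher, and all 28 RAG×WT morulae in the other. Within the shared set Me1 (-1.31, adjusted p = 0.00515), Acly (-0.95, adjusted p = 0.0233) and Srebf1 (-0.99, adjusted p = 0.0325) were called, and Acss2 (-1.06, adjusted p = 0.064) and Acaca (-0.54, adjusted p = 0.167) were not, beside 12.9% of all genes. With median ratio scaling Acaca was not called (-0.51, adjusted p = 0.0847). The Y-linked gene Ddx3y had a mean of 4.32 TPM in GF×CR and 15.7 TPM in CR×CR morulae (-2.02, adjusted p = 0.0247), and its part in the member values was not tested.

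Other genes of the pathway were called in the same morulae, where 30.2% of all genes were called, 2969 of 10893 as lower. Of 15 regulators 5 fell and none rose, and of 12 supply genes 3 fell and 1 rose, shares near that background. The regulators that fell included Scap (-1.19), the escort protein that carries SREBP to the Golgi, called in 10 of 11 alternatives, Mbtps1 (-0.96), the protease that cleaves it there, called in 7 of 11, and Srebf2 (-1.0), the sterol factor related to Srebf1, called in 5 of 11. On the supply list Pgd (-0.54) and Cs (-0.41) fell, called in 7 and 4 of 11 alternatives, and Mpc2 rose (0.46, 6 of 11). Of 14 product handling genes 8 fell and none rose, among them the desaturase Fads1 (-1.57), the acyl-CoA synthetases Acsl1 (-1.30) and Acsl3 (-1.0) and the elongase Elovl5 (-0.95), each called in 7 to 9 of 11 alternatives. With the number of genes above 0 as a covariate, Scap (-0.82, adjusted p = 0.0491) was called and the others named here were not. The list medians were -0.48, -0.36 and -0.71 for regulators, supply and product handling, beside -0.32 over all genes. In RAG×WT 4-cell embryos the regulators Nr1h2 (0.70) and Mlxip (1.41) and the carrier gene Mpc1 (-0.50) were called, but with the library set as a covariate or within the shared set they were not, at 0.26, 0.28 and -0.17.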

How the data were processed

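The authors quantified gland, skin, ileum and liver libraries as CPM in R 4.2, with Kallisto and Ensembl annotation per their methods, which name RSEM for liver; versions and the tissue build are not given in the sources used here. The deposited embryo values are TPM, computed by the authors from an RSEM quantification against mm10. From these tables, differences were fitted with limma 3.58.1 (R 4.3.3; variance trend, two-sided) on log2(value + 0.5) after a filter at 1, in 13 comparisons within 10 tables, with Benjamini-Hochberg adjustment over all genes tested and a threshold of 0.05. Values were summarised with Python 3.11.15 and pandas 2.3.3. From each gland and skin table, date-like gene names (27) were left out. All 10 members are reported in every table, list genes as counts, medians and those that passed (at most 6 per list) or at most 3 defining genes, and the 5 genes most like the members; some genes that this rule names are not reported here. The members and lists were chosen with earlier results of these data known. Labels name separate mice and embryos; p-values measure the spread between them, and those over embryos take embryos of a shared fertilization round, which is not given per embryo, as independent. Replicate numbers were checked as pairs: same-numbered ileum samples deviated together (correlations 0.212 to 0.273 over 3 pairs), which no other comparison showed for every pair. Alternatives covered the pseudocount, the filter, scaling, library weights, a replicate block, a Y-linked covariate, the embryo library set, the number of genes detected, and each mouse left out. The fit was tested on simulated data.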

Additional observations from a re-analysis of the deposited data

Results flagged for a closer look

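Mlxipl in F2 skin had 1 mouse far from the others of its group: GF×CR replicate 3 was at 68.8 CPM, where the next of the 6 mice was at 32.1 CPM and the lowest at 23.1 CPM, a gap of 0.804 of the whole range. This was 1 of 59 combinations of a member and a group of 4 to 9 samples examined in this way, and chance alone gives about 1 in 20. Members of the same group share samples, so the combinations are not independent.

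For Acss2 and Me1 the GF×CR mice of different tissues lay on opposite sides of their control means. Acss2 was lower in F1 skin (-0.48) and higher in liver (0.75), 1.22 apart on the log2 scale, and every GF×CR mouse of each tissue had the sign of its group. For Me1 the values were -0.36 in F1 skin and 0.93 in liver, 1.28 apart. Set against liver, the ileum was 1.41 apart for Acss2 (-0.66) and 2.11 apart for Me1 (-1.18). These 4 differences between tissues were picked out of checks of every tested member. The checks covered each pair of comparisons of the same kind, across tissues or generations. The differences were not tested, since the tables were normalised separately and the labels do not say whether the tissues come from the same mice.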

How the results depend on the processing

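Under the alternatives, 1596 of 1697 member values kept their sign; of the 101 that did not, 82 had a difference under 0.2 in size, and no called value turned. With any 1 mouse left out, 0 members were called in each tissue comparison (lowest 0, highest 0). Library weights called 5 members in F1 GF×GF skin and 9 in ileum. The replicate block rests on shared numbers, which the labels do not describe as pairs in any tissue. It called 3 members in liver and left 1 (Me1) of 5 in GF×CR morulae. In RAG×WT 4-cell embryos it kept the count of 1 with Acly in place of Fasn. There a pseudocount of 1 or a filter at 5 called 2 members, and no filter, median ratio scaling, the library set as a covariate or the shared set alone called 0. The shared set alone called 3 in GF×CR morulae; this setting was added after seeing the data, as were those on the number of genes above 0 and on the ileum libraries of lowest depth. With that number as a covariate, 0 members were called in GF×CR morulae and in RAG×WT 4-cell embryos, and without the GF×CR morulae below every control in it 3 were called. Counts over all genes moved more: F0 gland 327, 60 with no filter, 891 with library weights, 505 with the block, 0 with the Y-linked covariate and 49 to 684 with 1 mouse left out; F1 gland 108, then 5, 52, 0 with the covariate and 2 to 53; F1 GF×GF skin 15, 7 with no filter and with the covariate, 2377 with weights and 8 to 16; F1 GF×CR skin 9, then 5, 94, 129 with the block and 2 to 10; F2 GF×GF skin 7, 662 with weights, 4 with the covariate and 4 to 9; F2 GF×CR skin 0, 6 with weights and 0 to 1; ileum 0, 1348 with weights and 1 with the block; liver 4, 48 with weights, 224 with the block and 4 to 11. For embryos, CR×GF 4-cell went from 36 to 21 with a pseudocount of 0.1, 9 with no filter, 3 with the block and 20 and 13 by library set; RAG×WT 4-cell from 515 to 309 with no filter and 0 by set; GF×CR morulae from 3287 to 133 with the block and 1566 and 1271 by set, 190 with the gene number as a covariate and 1225 without the morulae of lowest number; RAG×WT morulae from 281 to 162 with no filter, 1214 with weights, 1474 with the block 4 and 3 by set, and 455 with the gene number. The causes were not tested. A count test on reads recovered from CPM was not run, since the values did not give whole reads in nearly all columns; the Y-linked covariate could not be fitted in liver; and no embryo had under 50% of the median gene number, so none was left out for that. TPM keeps no depth, so the depth of the embryo libraries is unknown.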
